A study of Mus musculus with 3 samples.

Results

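Pi16+ Dpp4+ fibroblasts of the mouse hind paw were picked out of 2 single-cell libraries by their own RNA. A cell was a member when it held at least 2 unique molecular identifiers (UMIs, each standing for 1 captured RNA molecule) of Pi16, at least 1 of Dpp4 and at least 1 of Sema3c, Efhd1 or Anxa3, fewer than 5 of Saa3, and none of Ptprc or Pecam1. The rule found 626 members among 7368 passing cells at steady state (day 0) and 832 among 11172 at day 5 of arthritis, 1458 of the 24485 passing cells in all 3 libraries. Members were compared with every other passing cell that held at least 1 UMI of Pdgfra, the platelet-derived growth factor receptor of fibroblasts, 5562 cells at day 0 and 8595 at day 5. Pdgfra itself was not part of the rule, and 96.3% of members at day 0 and 96.4% at day 5 held it.

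Both stromal libraries came from hind paws that had lost skin, muscle and tendon, were digested with collagenase IV and desoxyribonuclease I, and were sorted for cells without CD45, the surface protein of leukocytes. Stromal day 0 was labelled steady state, and stromal day 5 was taken 5 days into K/BxN serum transfer arthritis, in which serum of arthritic K/BxN mice injected into the abdomen starts a joint inflammation. The remaining library, of CD45+CD11b+Ly6G- cells at day 9, entered no comparison. Strain, age, sex and number of mice were not given in the sources used here, and with 1 library per day no difference could be tested between animals.

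In many mouse tissues, fibroblasts with Pi16 and Dpp4 lie in the outer coat of vessels and in fascia-like layers, and they are regarded as a reserve from which more specialised fibroblasts can form. Pi16 encodes a putative peptidase inhibitor and Dpp4 a cell-surface peptidase, also known as CD26. Cd34, Cd55 and Cd248 are surface proteins often found on the same cells. Whether the cells of the paw act as progenitors cannot be read from their RNA, so "progenitor" is used below only as the name of a gene list.

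The stromal tables held 77842586 UMIs in 7740 barcodes at day 0 and 122224428 in 11900 at day 5. Members were deeper than other Pdgfra+ cells, with medians of 11313.5 against 10099.5 UMIs at day 0 and 10942.5 against 9677 at day 5. Their median mitochondrial share was 3.38% at day 0 and 3.23% at day 5. The libraries shared 32 barcodes, and 1 barcode was a member in both. All intervals below are exact 95% intervals that cover counting error only, not differences between mice or libraries.

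The rule took its largest step at Dpp4. At day 0, 3154 cells met the Pi16 threshold and 642 of them held a UMI of Dpp4, and at day 5 these numbers were 4726 and 930. The values that chose the members are a description only. Pi16 stood at 3214 CPM (its UMIs in 1000000 UMIs summed over the cells) in members and 895 in other Pdgfra+ cells at day 0, and at 2773 and 815 at day 5. Dpp4 stood at 145 and 4.26 CPM at day 0 and at 134 and 4.12 CPM at day 5. The median member held 1 UMI of Dpp4 in each library, against 28.5 and 25 of Pi16.

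The genes of the third step stood lower at day 5 than at day 0 in the members. Sema3c, a secreted guidance protein, was at 410 CPM at day 0 and 290 at day 5. Efhd1, a calcium-binding protein of mitochondria, was at 187 and 86.8 CPM, and Anxa3, an annexin, at 296 and 178 CPM. Other Pdgfra+ cells were lower at day 5 as well, with Sema3c at 127 and 91.9 CPM, Efhd1 at 54.7 and 23.2 and Anxa3 at 83.5 and 55.5. Members with all 3 of these genes made up 63.4% at day 0 and 38.3% at day 5. Saa3, an acute-phase apolipoprotein that the rule limited, stood at 0.392 and 5.23 CPM in members against 3.66 and 663 in other Pdgfra+ cells.

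Members made up 8.50% of passing cells at day 0 (7.87 to 9.16) and 7.45% at day 5 (6.97 to 7.95). The share moved with cell depth. It was 3.92% among day 0 cells with 1000 to under 4000 UMIs and 14% among those with 15000 or more, and 1.34% and 11.0% at day 5. With every cell thinned to 4000 UMIs before the rule was applied, 269 of 7062 cells were members at day 0 (3.81%, 3.37 to 4.28) and 301 of 10500 at day 5 (2.87%, 2.56 to 3.20). The 306 and 672 shallower cells were left out of the thinned count.

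**Figure D1:**
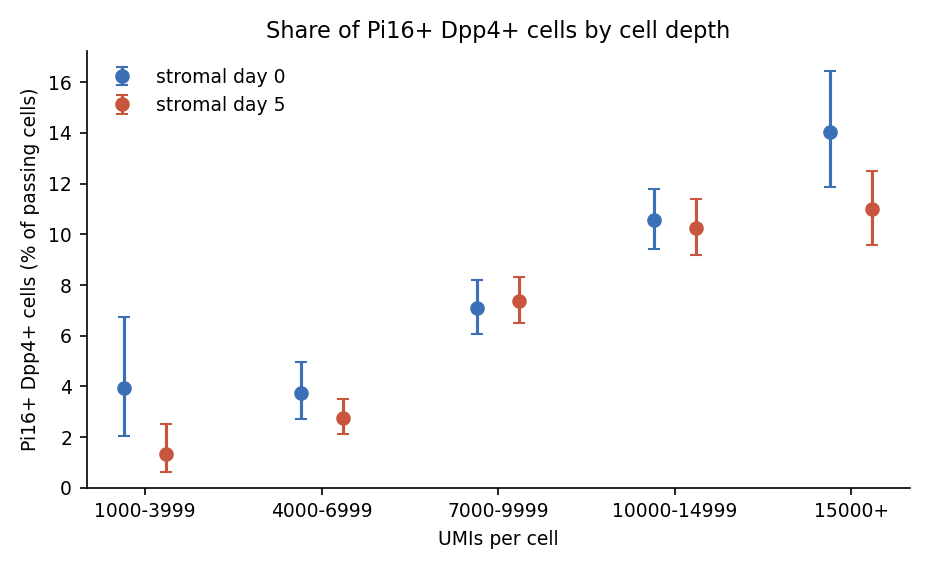
Share of passing cells that met the rule (%, vertical axis) by the number of UMIs in the cell (horizontal axis), for stromal day 0 in blue and stromal day 5 in red, with exact 95% binomial intervals. The share is 3.92% and 1.34% in the shallowest cells and 14% and 11.0% in the deepest.

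Cells just outside the rule were close to the members in some genes and not in others. Without a Dpp4 UMI but with all else met, there were 2056 cells at day 0 and 2642 at day 5. Their Krtdap was 311 and 253 CPM, between the members and the other Pdgfra+ cells, and their Tek was 31.5 and 21.4 CPM. The limit on Saa3 removed 0 cells at day 0 and 25 at day 5. Those 25 cells had a median of 25523 UMIs, with Ptx3 at 905 and Ccl2 at 758 CPM. Just inside that limit, 1 member at day 0 and 51 at day 5 held 1 to 4 UMIs of Saa3. Members with 2 or 3 UMIs of Pi16 numbered 30 and 57, and 29 and 42 cells with 1 UMI met the rest of the rule.

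A set of 5731 genes outside the rule was measured well enough in both libraries to compare members with other Pdgfra+ cells. Of these, 53 (0.925%) were at least 2-fold higher in members in both libraries and 112 (1.95%) were at least 2-fold lower in both. No gene stood 2-fold higher in one library and 2-fold lower in the other. Since the cells were picked from the same RNA counts, these genes describe the members and carry no test. Against cells without any UMI of Pi16 and Dpp4, 134 genes were higher and 199 lower, and with the rule on thinned cells 96 and 178. The plot of member levels against other Pdgfra+ cells in both libraries shows how closely the 2 libraries ran together.

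Tek, the angiopoietin receptor better known from endothelium, was at 74.1 CPM in members and 15.3 in other Pdgfra+ cells at day 0, a ratio of 4.85 (4.36 to 5.39). At day 5 it was at 52.4 and 10.7 CPM, a ratio of 4.87 (4.40 to 5.40). Against cells with neither a Pi16 nor a Dpp4 UMI, the ratios of Tek were 22.5 and 20.0. A Tek UMI was found in 51.0% of members and 10.8% of other Pdgfra+ cells at day 0, and in 0 of 188 cells marked as osteoblasts by Ibsp and Alpl, which allows a share of up to 1.60%. The median depth of those osteoblasts was 7563.5 UMIs, below that of members. Endothelial markers were near 0 in the members: Pecam1 was excluded by the rule, and the 5 endothelial list genes together came to 0.653 CPM at day 0 and 0.721 at day 5.

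Cd55, which shields cells from complement, was at 598 CPM in members and 197 in other Pdgfra+ cells at day 0, and at 273 and 104 CPM at day 5. Cd248, or endosialin, was at 533 and 183 CPM at day 0 and at 286 and 106 CPM at day 5. Cd34 was at 1317 and 620 CPM at day 0 and at 770 and 311 CPM at day 5. These 3 surface genes kept more than 2-fold higher levels in members on both days while their own levels were lower at day 5. Procr, the protein C receptor, was 2.39-fold higher in members at day 0 and 3.03-fold at day 5. Adgrd1, an adhesion G protein-coupled receptor, was 3.41-fold and 2.85-fold higher.

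Pou2f2, a POU-domain factor known from B cells, was at 106 CPM in members and 25.3 in other Pdgfra+ cells at day 0, and at 85.8 and 19.4 CPM at day 5. Its ratios were 4.17 (3.82 to 4.54) and 4.43 (4.09 to 4.79), and 10.0 and 9.55 against cells with neither a Pi16 nor a Dpp4 UMI. Zfp385a, a zinc finger protein, was 3.41-fold and 3.54-fold higher, and Nova1, a splicing factor, 2.49-fold and 2.64-fold. Lims2, an adaptor at integrin adhesions, was 3.73-fold and 3.39-fold higher. In the matrix, Pcolce2, an enhancer of collagen propeptide cleavage, was at 1576 and 709 CPM at day 0 and at 1379 and 552 CPM at day 5. Efemp1, a fibulin, was 2.62-fold and 2.25-fold higher and Emilin2 2.64-fold and 2.21-fold.

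**Figure D2:**
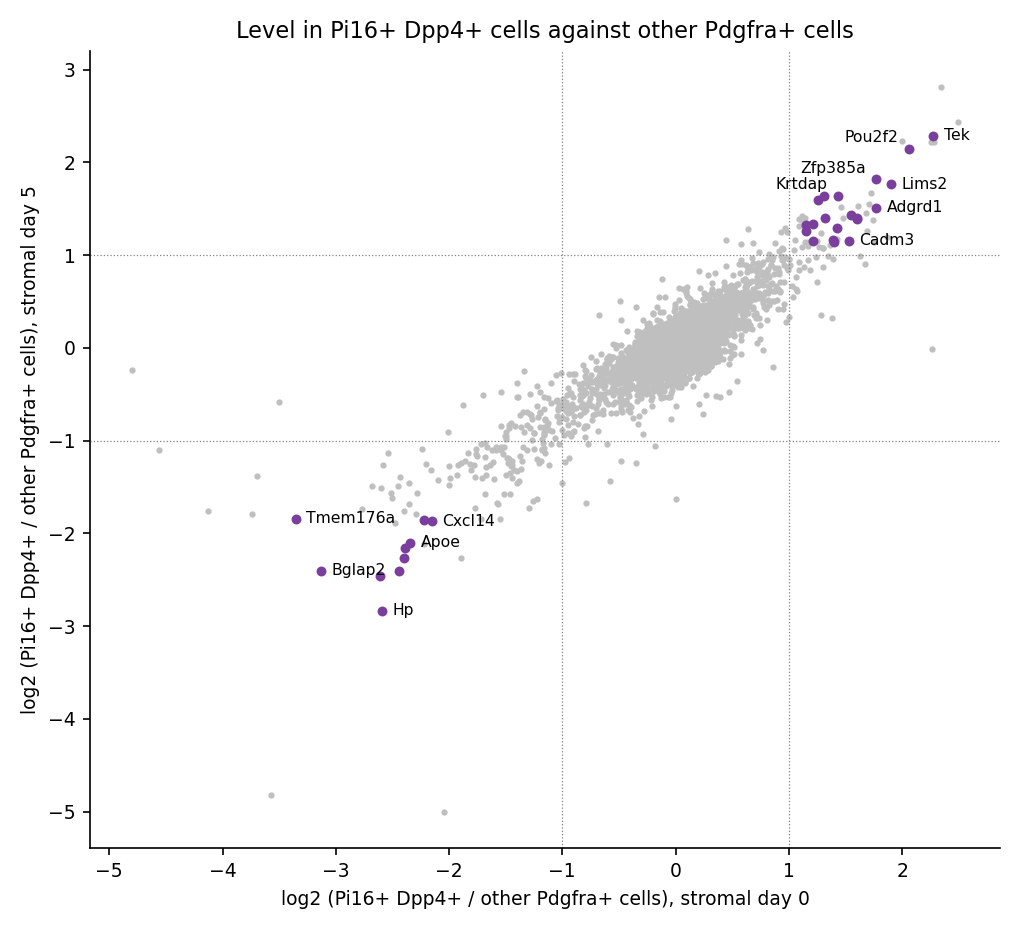
Each point is 1 of 5731 genes, with the log2 ratio of its CPM in Pi16+ Dpp4+ cells to that in other Pdgfra+ cells at stromal day 0 (horizontal axis) and at stromal day 5 (vertical axis). Dotted lines mark 2-fold, purple points are the genes named by the rule on size, and values below -5 are drawn at -5. The points lie along the diagonal, and Tek and Pou2f2 lead the named genes at ratios of 4.85 and 4.17 at day 0.

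Of 30 measured genes of a list of markers of adventitial progenitor fibroblasts in other tissues, 11 were at least 2-fold higher in members in both libraries and 0 lower. The median log2 ratio of that list was 0.91 at day 0 and 0.84 at day 5, against 0.05 and 0.03 over all 5731 genes. The signalling ligand Wnt2 (40.0 against 4.69 CPM at day 0) and Il18 (64.3 against 13.2 CPM), which encodes a cytokine precursor, were also high in members. Neither reached the level set for a named gene in both libraries, and both were picked here after their values were seen.

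Genes of the joint lining and bone lists were low in members. Of 6 measured genes of the joint lining list, 4 were at least 2-fold lower, with a median log2 ratio of -2.37 at day 0 and -1.92 at day 5. Htra4, a serine protease of that list, was at 35.7 CPM in members and 218 in other Pdgfra+ cells at day 0, and at 20.0 and 110 CPM at day 5. Hbegf, an epidermal growth factor ligand, was 5.25-fold and 4.45-fold lower. Apoe, which carries lipid, was at 280 and 1420 CPM at day 0 and at 405 and 1740 CPM at day 5, and the chemokine Cxcl14 was 4.45-fold and 3.66-fold lower. Hp, which encodes the acute-phase protein haptoglobin, was 6.03-fold and 7.13-fold lower, and with it 3 of 9 acute-phase genes were at least 2-fold lower. The rule limited Saa3, itself an acute-phase gene, in members alone, which bears on these genes at day 5. With no limit on Saa3, the day 5 ratio of Hp in members to other Pdgfra+ cells was 0.265 (0.140 with it). Bglap, the osteocalcin of osteoblasts, was at 69.5 and 54.2 CPM in members, and the 10 members with most of it held 98.7% and 94.2% of its UMIs. Its ratios to other Pdgfra+ cells were 0.190 and 0.208, and 0.00508 and 0.0100 with doublets removed by Scrublet score.

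Marker RNA of other cell types differed by type in members. Tenocyte markers summed to 367 and 315 CPM, Schwann cell markers to 36.3 and 38 and chondrocyte markers to 23.7 and 24.9, against 820 and 759, 67.3 and 57.7, and 63.0 and 66.9 CPM in other Pdgfra+ cells. Absence of Ptprc and Pecam1 was required of members alone, which bears on blood and endothelial RNA. The summed level of the 5 leukocyte markers was 0.915 CPM at day 0 and 1.71 at day 5. The 4 neutrophil markers came to 0 and 0.180 CPM, against 0.0668 and 19.0 in other Pdgfra+ cells and 0.0682 and 2.15 in those that met the same exclusions as members (fewer than 5 Saa3 UMIs and none of Ptprc or Pecam1). Erythroid markers came to 9.80 and 2.16 CPM in members and to 10.6 and 257 CPM in other Pdgfra+ cells. In those that met the same exclusions, erythroid markers came to 10.5 and 286 CPM. The 6 keratinocyte markers summed to 56.7 and 32.6 CPM, almost all of it Krt10, and Krt5 and Krt14 were at 0 in both libraries. Osteoblast markers were at 112 CPM at day 0 and 310 at day 5 in members, against 972 and 813 in other Pdgfra+ cells.

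Clustering each library's Pdgfra+ cells and members without the 8 rule genes put most of the members into 1 cluster. It held 365 of 626 members at day 0 (58.3%, 54.3 to 62.2) and 431 of 832 at day 5 (51.8%, 48.3 to 55.2). Wnt2, Il18, Tek, Pou2f2 and Rorb led that cluster at day 0, and Krtdap, Pou2f2, Rorb and Arl4d at day 5. Of its 411 nonmembers at day 0, 361 met the Pi16 threshold and lacked a Dpp4 UMI, as did 473 of 600 at day 5. Members outside the cluster were deeper, with medians of 12477 and 13110 UMIs against 10893 and 9923 inside. The main cluster's share depended on how finely the cells were split: at coarse resolution it held 68.5% and 57.5% of members, and at fine resolution 30.2% and 44.4%.

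Some members also carried genes that mark other fibroblast states. Adh7, a retinol-oxidising enzyme, and Sult5a1, a sulfotransferase, were found together in 12.1% of members at day 0 (9.69 to 15.0) and 26.9% at day 5 (23.9 to 30.1). In other Pdgfra+ cells the shares were 5.18% and 8.6%. In cells thinned to 4000 UMIs they were 3.91% and 8.63% of members and 1.41% and 3.00% of other Pdgfra+ cells, in the same order. Scg3 and S100g were found together in 5.59% and 4.21% of members, against 1.89% and 1.05% of other Pdgfra+ cells. Hand2os1 with Hpse2 (10.1% against 8.35%) and Smoc2 with Hsd11b1 (3.97% against 3.27%) were more frequent in members at day 5. At day 0 these pairs were rarer in members, at 4.31% against 5.16% and 2.40% against 3.09%. The markers that follow were rarer in members on both days. The pair of lining genes Prg4 (5 or more UMIs) and Clic5 marked 5 and 6 members (0.80% and 0.72%), against 3.51% and 2.61% of other Pdgfra+ cells. At least 3 UMIs of Ibsp, a bone sialoprotein, were found in 4 members at day 0 (0.64%) and 23 at day 5 (2.76%). In other Pdgfra+ cells these shares were 5.56% and 4.65%. At least 3 UMIs of Tnmd, a tendon gene, were found in 40 and 46 members (6.39% and 5.53%), against 10.1% and 9.18% of other Pdgfra+ cells.

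Krtdap, one of the markers by which these cells were labelled, divided the members. It encodes a small secreted protein first described in differentiating keratinocytes. On chromosome 7 of mm10 (plus strand) it lies at 30787896 to 30791097, downstream of Sbsn (suprabasin, 30751471 to 30756134) and Dmkn (dermokine, 30763756 to 30781063), which encode further secreted proteins of the epidermis. Krtdap was at 487 CPM in members and 180 in other Pdgfra+ cells at day 0, and at 470 and 151 CPM at day 5. Yet 391 of 626 members at day 0 (62.5%) and 517 of 832 at day 5 (62.1%) held no Krtdap UMI, while 28.1% and 27.2% held 5 or more. In other Pdgfra+ cells 9.56% and 8.50% held 5 or more. A Krtdap UMI was found in 1.60% of the osteoblast-marked cells at day 0, against 37.5% of members.

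Sbsn followed Krtdap from cell to cell. Among members with 5 or more Krtdap UMIs it was at 576 CPM at day 0 and 447 at day 5, and among members with none at 153 and 126 CPM. The ratios were 3.75 (3.43 to 4.12) and 3.55 (3.26 to 3.87). Members with 1 to 4 Krtdap UMIs lay between, at 211 and 247 CPM. Other Pdgfra+ cells showed the same order, 480 against 110 CPM at day 0 and 540 against 91.0 at day 5. Dmkn was low, at 19.7 and 16.0 CPM with 5 or more Krtdap UMIs and 6.17 and 8.40 CPM with none. With 1 to 4 Krtdap UMIs Dmkn was at 4.20 and 4.06 CPM, below the members with none. Over all members, 10 cells held 85.5% and 80.4% of the Dmkn UMIs. Of 15 genes within 100000 bases of Krtdap, Tmem147 was the other well measured one. Its ratios between members with 5 or more Krtdap UMIs and members with none were 0.92 and 1.10.

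**Figure D3:**
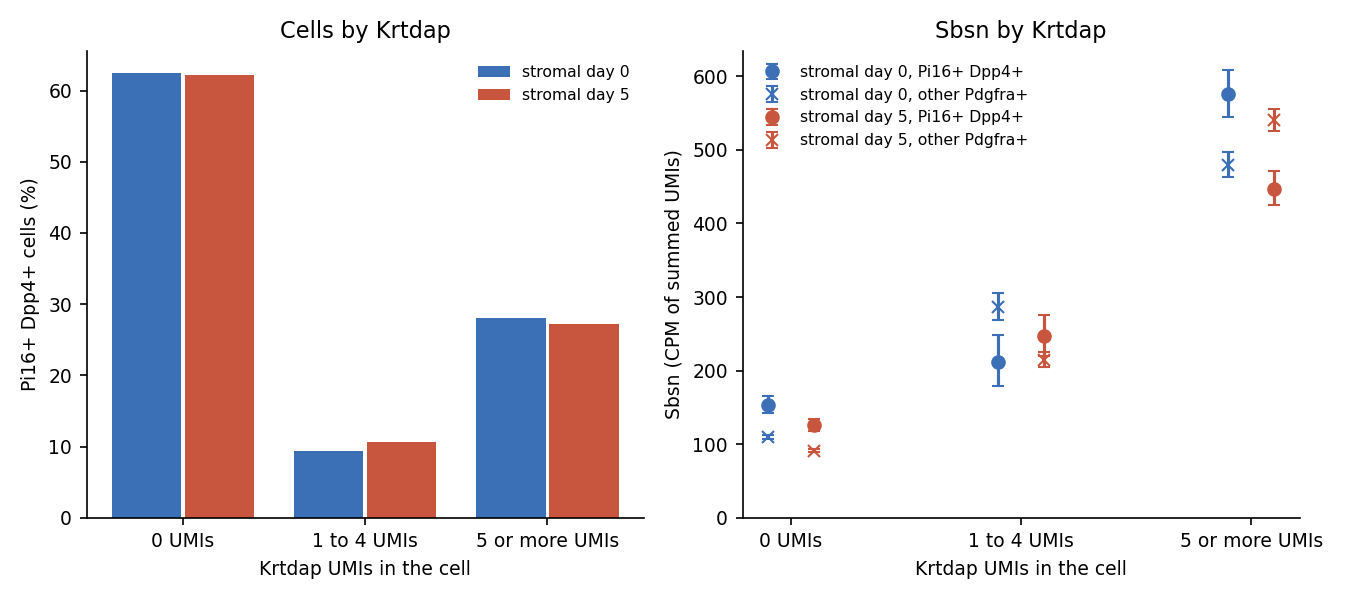
Left, share of Pi16+ Dpp4+ cells (%) by their number of Krtdap UMIs at stromal day 0 (blue) and day 5 (red). Right, Sbsn level (CPM of summed UMIs) in the same bins for Pi16+ Dpp4+ cells (circles) and other Pdgfra+ cells (crosses), with exact 95% Poisson intervals: among Pi16+ Dpp4+ cells it is 153 and 126 CPM without Krtdap and 576 and 447 CPM with 5 or more UMIs.

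Members with 5 or more Krtdap UMIs (Krtdap-high) and members with none were compared over 5456 genes. In Krtdap-high members 6 genes (0.11%) were at least 1.5-fold higher in both libraries and 24 (0.44%) at least 1.5-fold lower. The 6 were Sbsn, Hspb1, Plau, Wdr89, Ccl2 and Gngt2, and Hspb1, a small heat shock protein, had ratios of 1.71 and 1.58. In other Pdgfra+ cells the same ratios were 1.18 and 1.05 for Hspb1, 1.97 and 1.04 for Plau and 1.14 and 1.05 for Wdr89. There Gngt2 had ratios of 3.37 and 2.59, and Ccl2 went the opposite way, at 0.829 and 0.865. Among all members, the 10 with most Ccl2 held 68.9% of its UMIs at day 0 and 61.8% at day 5. Among the lower genes, Ecrg4, which encodes a secreted peptide precursor, was 4.12-fold and 3.03-fold lower in Krtdap-high members. Smoc2, a calcium-binding matrix protein, was 4.10-fold and 3.02-fold lower, and Thbs4, a thrombospondin of tendon, 3.15-fold and 2.85-fold. At day 5 a Thbs4 UMI was nevertheless found in 14.6% of Krtdap-high members and 13.9% of members without Krtdap. These genes were chosen after their values were seen.

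Because Krtdap and Sbsn moved together between cells, the 130 bases before each transcript start of Krtdap, Sbsn and Dmkn are shown, from RefSeq on GRCm38.p6 (plus strand), with matches to the AP-1 motif TGANTCA and the TATA box TATAAA in capitals. Dmkn has 2 starts in the table. The windows are chr7:30787775-30787904, chr7:30751341-30751470, chr7:30763626-30763755 and chr7:30776275-30776404, in the order of the lines.
Krtdap: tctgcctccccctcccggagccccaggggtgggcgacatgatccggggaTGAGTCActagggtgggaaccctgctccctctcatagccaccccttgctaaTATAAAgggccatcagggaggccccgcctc
Sbsn: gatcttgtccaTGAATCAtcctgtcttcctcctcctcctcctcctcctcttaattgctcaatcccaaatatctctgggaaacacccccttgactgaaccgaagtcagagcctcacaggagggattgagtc
Dmkn, first start: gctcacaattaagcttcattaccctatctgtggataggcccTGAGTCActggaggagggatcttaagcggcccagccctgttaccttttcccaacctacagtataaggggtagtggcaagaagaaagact
Dmkn, other start: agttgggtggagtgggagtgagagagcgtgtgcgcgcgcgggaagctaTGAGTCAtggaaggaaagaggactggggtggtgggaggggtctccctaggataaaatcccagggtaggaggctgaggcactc
Each of these 4 windows held 1 match to TGANTCA, beginning 81 bases before the start in Krtdap, 119 in Sbsn, and 89 and 82 in Dmkn. Both strands were searched, and 1215 of 32851 promoter windows of the same length held a match (3.70%). Krtdap alone held TATAAA, 30 bases before its start, a motif found in 6.83% of windows. The Klf box CACCC was searched as well, with 3, 1, 0 and 2 matches in the windows in that order, and it was found in 33.7% of windows. A match describes letters and not binding, and no binding was measured here.

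Between the days, 6089 genes were compared in the members. Of these, 243 (3.99%) were at least 1.5-fold higher at day 5 and 270 (4.43%) at least 1.5-fold lower. With the rule on cells thinned to 4000 UMIs, 501 were lower. In other Pdgfra+ cells 171 (2.85%) and 189 (3.15%) of 6004 genes passed the same size. Among 5732 genes measured in both, 227 were higher in members and 91 of those also in other Pdgfra+ cells, and 225 were lower in members and 116 of those also in other Pdgfra+ cells. In these sums of UMIs, a change in every cell and a change in which cells met the rule cannot be told apart.

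The genes that set the members apart were mostly lower or level at day 5. Of the 53 higher in members, 22 were at least 1.5-fold lower at day 5 and 1 was higher. Their median log2 difference was -0.50 in members and -0.45 in other Pdgfra+ cells. Of the 34 measured genes of the adventitial progenitor list, 20 were lower at day 5 and 0 higher, with a median of -0.69 against -0.04 over all genes. In other Pdgfra+ cells the median was -0.55, with 16 lower. Cd55 was 2.19-fold lower at day 5 (2.09 to 2.29), Cd248 1.87-fold and Cd34 1.71-fold. Fbn1, the main fibrillin of microfibrils, went from 920 to 507 CPM in members and from 289 to 271 in other Pdgfra+ cells.

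Genes of sterol synthesis and uptake were lower together. Of 10 measured genes, 9 were at least 1.5-fold lower at day 5 and 0 higher, with a median log2 difference of -1.09, and in other Pdgfra+ cells 4 were lower with a median of -0.45. Idi1, an enzyme of isoprenoid synthesis, went from 38.2 to 14 CPM in members and from 24.9 to 15.8 in other Pdgfra+ cells. Cyp51 and Sqle, which act late in the pathway, were 2.12-fold and 2.07-fold lower in members and 1.19-fold and 1.15-fold lower in other Pdgfra+ cells. At day 0 members were above other Pdgfra+ cells in these 3 genes, and at day 5 slightly below them.

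A second metabolic group supplies the sugars of hyaluronan, a large glycan of joint fluid and matrix. It was put together after its members' values were seen. Of 9 measured genes, 5 were lower at day 5 and 0 higher, with a median of -0.66 in members and -0.50 in other Pdgfra+ cells. Ugdh, which makes UDP-glucuronate, went from 597 to 222 CPM, 2.69-fold lower (2.56 to 2.83), against 1.85-fold in other Pdgfra+ cells. Gnpnat1, an enzyme on the way to UDP-N-acetylglucosamine, and Has2, a hyaluronan synthase, were each 2.28-fold lower, and Gfpt2 went from 242 to 136 CPM. The day ratios of Gnpnat1 and Has2 were 0.439 and 0.439 in members. In other Pdgfra+ cells that met the same exclusions as members they were 0.538 and 0.462.

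Signalling genes were among the other lower ones. Tmem100, a membrane protein, went from 433 to 120 CPM, 3.60-fold lower (3.37 to 3.83). Ackr3, a scavenging receptor for Cxcl12, went from 534 to 226 CPM, and the Notch target Hes1 from 80.1 to 31.6 CPM. Other Pdgfra+ cells that met the same exclusions as members were also lower at day 5 in Tmem100, Ackr3 and Hes1. There Tmem100 went from 233 to 78.5 CPM, Ackr3 from 288 to 145 CPM and Hes1 from 92.2 to 49.6 CPM. Il4ra, the shared receptor chain for interleukins 4 and 13, went from 205 to 92.8 CPM in members, 2.21-fold lower (2.04 to 2.39), while other Pdgfra+ cells were at 79.0 and 74.5 CPM. Its level in members was thus 2.60-fold that of other Pdgfra+ cells at day 0 and 1.25-fold at day 5. Other Pdgfra+ cells that met the same exclusions as members were at 79.0 and 63.4 CPM of Il4ra. Il33, an alarmin cytokine, went from 53.8 to 31.0 CPM in members and from 46.6 to 47.3 in other Pdgfra+ cells. Tgfb2 was 2.12-fold lower and the collagen-crosslinking enzyme Loxl2 2.05-fold.

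Of the Wnt list, 5 of 12 measured genes were lower in members and 1 was higher, with a median of -0.36. Wnt2 went from 40.0 to 16.1 CPM. Sfrp2, a Wnt-binding secreted protein, was the higher one, from 36.7 to 159 CPM, with 75.1% of its day 5 UMIs in 10 cells. Of 15 collagens, 2 were higher, the basement membrane genes Col4a1 and Col4a2, and 0 lower. Of 15 glycolysis and hypoxia genes, 0 were higher and 1, Vegfa, was lower.

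Some of the genes higher at day 5 belong to lists of inflammation, and for several of them a few cells carried much of the RNA. Of 8 acute-phase and defence genes, 6 were higher in members, with a median log2 difference of 1.38, against 1.36 in other Pdgfra+ cells and 1.19 in those that met the same exclusions. Lcn2, an iron-trapping lipocalin, went from 13.5 to 73.2 CPM, 5.44-fold higher (4.43 to 6.74), and 7.07-fold in other Pdgfra+ cells, to 353 CPM. Ptx3, a pentraxin of innate defence, went from 18.9 to 84.8 CPM, 4.48-fold (3.76 to 5.37), and 8.24-fold in other Pdgfra+ cells. At day 5 Lcn2 was 4.82-fold and Ptx3 3.19-fold lower in members, but the rule's limit on Saa3, an acute-phase gene, held for members alone. Other Pdgfra+ cells that met the same exclusions were at 217 CPM of Lcn2 and 169 of Ptx3 at day 5, 2.97-fold and 2.00-fold above members. Their day ratios were 4.38 for Lcn2, below that of members, and 5.23 for Ptx3. Without the limit on Saa3 the members' ratios were 8.73 and 7.30. For Lcn2 the members' day ratio lay below that of other Pdgfra+ cells when the limit held for members alone. It lay above when the limit held for both kinds of cell (5.44 against 4.38). The members' 8.73 without the limit was also above the 7.07 of other Pdgfra+ cells. With the rule applied to cells thinned to 4000 UMIs, the day ratio of Ptx3 in members was 0.777. The limit on Saa3 removed 25 cells at day 5 and 0 at day 0.

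Of 11 measured genes of the chemokine list, 8 were higher in members and 0 lower, with a median log2 difference of 0.90. In other Pdgfra+ cells 6 of the 11 were higher and 0 lower, with a median of 0.66. Ccl7 went from 44.2 to 178 CPM and Ccl2 from 31.9 to 81.6 CPM, against 61.7 to 415 and 31.8 to 252 CPM in other Pdgfra+ cells, or 312 and 179 CPM at day 5 in those that met the same exclusions. Both draw monocytes. Ccl19, a lymphocyte attractant with near-identical copies in the mouse genome among which reads can be split, was at 27.3 and 104 CPM. The day ratio of Ccl2 was 0.255 with the rule on thinned cells and 0.776 in the main cluster described next. Cxcl5, a neutrophil attractant, went from 1.96 to 36.7 CPM in members, with 82.1% of the day 5 UMIs in 10 cells. In other Pdgfra+ cells Cxcl5 went from 4.79 to 89.9 CPM. The secreted proteases Mmp3 and Mmp13 were 4.80-fold and 4.40-fold higher in members, and 95.3% of the day 5 UMIs of Mmp13 lay in 10 cells. For Mmp3 the members' day ratio was 0.818 times that of other Pdgfra+ cells, and 1.20 times that of those that met the same exclusions. Without members that held at least 3 UMIs of Ibsp or Tnmd or any of Mki67 or Top2a, the ratio of Mmp13 was 0.336, whereas it was 10.8 with doublets removed by Scrublet score and 7.52 with no limit on Saa3. The metallothionein Mt2 went from 396 to 1257 CPM in members and 3.67-fold higher in other Pdgfra+ cells. Of 14 NF-kB targets and regulators, 7 were higher and 0 lower, with a median of 0.59 against 0.44 in other Pdgfra+ cells.

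Splitting the members by whether they fell in the main cluster gave different pictures for the lower and the higher genes. The main cluster was the one with most members in each library, clustered by itself at resolution 1. The main clusters of day 0 and day 5 were not matched to each other, so ratios by day inside it may compare unlike sets of cells. The 15 genes named as lowest at day 5 were all at least 1.5-fold lower both inside that cluster (median ratio 0.382) and outside it (0.396). Of the 15 named as highest, 8 were at least 1.5-fold higher inside, with a median ratio of 1.69, and 15 of 15 outside, with a median of 4.17. Over all 6122 genes measured inside the cluster, 4.95% were higher and 6.45% lower. The clusters were made from 2000 variable genes, picked with the 8 rule genes left out. Cells with strong inflammatory or bone RNA could thus fall outside by construction, and the split is a description.

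Inside the main cluster, Timp1, an inhibitor of metalloproteinases, was at 50.6 CPM at day 0 and 50.8 at day 5, and outside it at 62.8 and 293 CPM. Lcn2 was at 6.26 and 7.45 CPM inside and at 22 and 119 CPM outside. Ptx3 was at 7.23 and 10.3 CPM inside and Ccl2 at 19.8 and 15.3 CPM. Spp1, or osteopontin, was at 13.5 and 8.76 CPM inside and at 73.1 and 848 CPM outside, where 10 cells held most of the day 5 UMIs. Other genes of the acute-phase and chemokine lists were not level inside. Of 4 acute-phase genes measured there 3 were higher (median 0.86), and of 9 chemokine genes 7 were higher and 0 lower (median 0.90).

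Another set was higher inside the cluster too. Inmt, a methyltransferase of small amines, went from 41.4 to 271 CPM inside it, 6.54-fold higher (5.57 to 7.72), and from 122 to 273 CPM outside. Lpl, the lipase that frees fatty acids from lipoproteins, went from 126 to 374 CPM inside, 2.98-fold (2.70 to 3.29), and from 206 to 233 CPM outside. Lpl was among the leading genes of other clusters, which held 59 and 28 members at day 0 and 55 at day 5. Cells with much Lpl could thus fall outside by construction, and its split is a description as well. Hpgd, which breaks down prostaglandins, was 5.14-fold higher inside (3.28 to 8.39), from 5.54 CPM. Col4a1 went from 35.2 to 88.9 CPM, Nrp1, a coreceptor of semaphorins and vascular growth factors, from 84.1 to 205 CPM, and Vegfd, a ligand for lymphatic vessels, from 39.0 to 95.5 CPM. Mmp3 and Angptl4, an inhibitor of Lpl, were also higher inside, 3.33-fold and 4.3-fold.

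Inmt, Lpl and Col4a1 belong to a list of genes that mark parenchymal or Col15a1+ fibroblasts in other tissues. Of 13 measured genes of that list, 8 were higher at day 5 in members and 0 lower, with a median log2 difference of 0.80 against 0.37 in other Pdgfra+ cells, where 3 were higher. Within the main cluster 8 of 12 were higher and 0 lower, with a median of 0.85. Cxcl12 and Cxcl14, among the higher genes of this list over all members, are also counted among the higher genes of the chemokine list. Gas6, a ligand of the Axl receptor, went from 246 to 557 CPM in all members, and Cxcl12, which holds leukocytes and stem cells in place, from 682 to 1272 CPM. Col15a1 itself was at 28.9 and 26.2 CPM. Members still stood below other Pdgfra+ cells at day 5 for Gas6, Cxcl12 and Cxcl14.

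**Figure D4:**
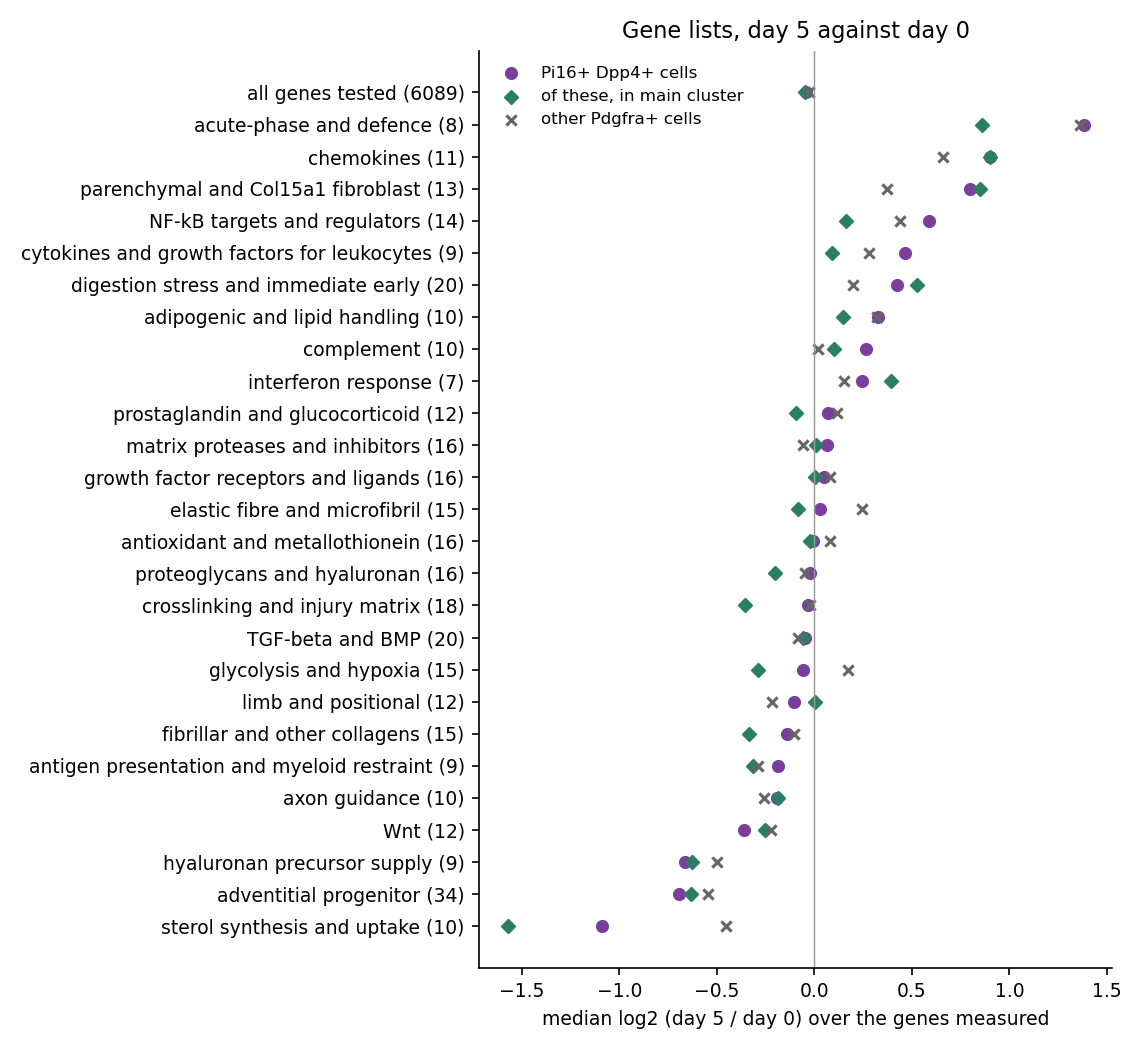
Median log2 ratio of day 5 to day 0 over the measured genes of each list (number in brackets) in all Pi16+ Dpp4+ cells (purple circles), in those of the main cluster (green diamonds) and in other Pdgfra+ cells (grey crosses). The sterol list lies lowest, at -1.09 in all Pi16+ Dpp4+ cells and -1.57 in the main cluster, and the acute-phase list is highest in all Pi16+ Dpp4+ cells, at 1.38, with 0.86 in the main cluster.

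The sterol list was lower inside the main cluster than over all members. There, 10 of 11 measured genes were at least 1.5-fold lower and the median was -1.57. Idi1 was 3.06-fold lower inside, from 40.2 to 13.1 CPM, and 2.45-fold outside, from 35.7 to 14.6 CPM. Fdps, which makes farnesyl pyrophosphate, went from 71.6 to 24.1 CPM inside and from 58.5 to 32.8 CPM outside. The adventitial progenitor list had 18 of 34 genes lower inside, with a median of -0.63. Pi16 was level inside at 3864 and 3866 CPM, and Dpp4 was at 171 and 183 CPM, both chosen by the rule.

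**Figure D5:**
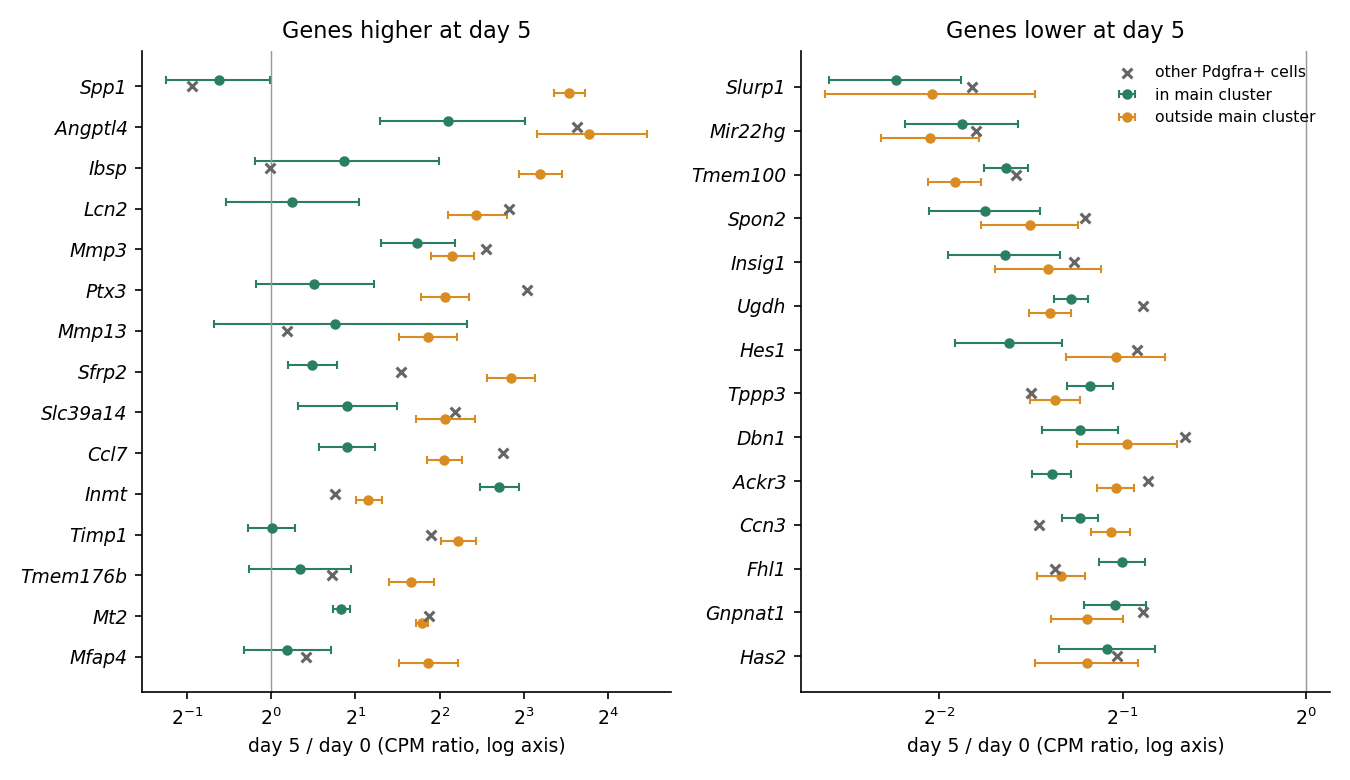
Ratio of day 5 to day 0 in CPM (log axis) for the 15 genes named as highest at day 5 (left) and 14 of the 15 named as lowest (right), in Pi16+ Dpp4+ cells of the main cluster (green), in those outside it (orange) and in other Pdgfra+ cells (crosses). Bars are exact 95% counting intervals. All 14 lower genes drawn lie below 1 in both kinds of cell, whereas among the higher genes Timp1 is at 1.00 inside and 4.66 outside.

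Genes of tissue digestion and immediate early response also differed by day. Of 20 measured, 6 were higher in members and 1 lower, with a median of 0.42 against 0.20 in other Pdgfra+ cells, and within the main cluster 9 were higher and 2 lower, with a median of 0.53. Egr1 went from 837 to 1439 CPM and Fosb from 1055 to 1730 CPM in members. These transcription factors respond within minutes to handling as well as to stimuli, and their part in the other differences was not tested.

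By the ratio between the members' day difference and that of other Pdgfra+ cells, Spp1, Ibsp, Mmp13, Angptl7, Clu and Mfap4 stood furthest above. For the first 3, a set of 10 members held 94.9%, 87.5% and 95.3% of the day 5 UMIs. Clu, or clusterin, went from 111 to 198 CPM in members and from 714 to 554 CPM in other Pdgfra+ cells. Main-cluster members gave ratios of 0.931 for Clu, 0.603 for Angptl7 and 0.649 for Spp1, and the rule on thinned cells gave 0.412 for Angptl7, 0.383 for Spp1 and 0.941 for Mfap4. Ccl2, Ppa1, Il4ra, Tnfaip6, Pcsk5 and Ptx3 stood furthest below. Only the members had to meet the limits on Saa3, Ptprc and Pecam1. Set against other Pdgfra+ cells under the same limits, the ratio of the day differences was 0.855 for Ptx3 (0.544 without), 0.449 for Ccl2 (0.323 without) and 0.612 for Tnfaip6 (0.516 without). For Ppa1, Il4ra and Pcsk5 that ratio was 0.547, 0.563 and 0.680 (0.476, 0.480 and 0.539 without). Tnfaip6, a hyaluronan-binding protein, went from 201 to 123 CPM in members and from 170 to 201 CPM in other Pdgfra+ cells, whose day ratio under the same limits was 0.999. Ppa1, a pyrophosphatase, went from 61.3 to 51.6 CPM in members and from 33.7 to 59.5 CPM in other Pdgfra+ cells. With 1 library per day, none of these differences between the 2 kinds of cell was tested.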

How the data were processed

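The deposited matrices hold raw UMI counts per gene and barcode, output of Cell Ranger 6.0.1, per the file headers, run by the authors on 10x 3' libraries against the 10x mm10 reference named in the labels' protocols. Seurat 4.3.0 is named in the submitters' processing notes, without its role. Cells needed 500 genes, 1000 UMIs and at most 10% mitochondrial UMIs. No doublets were removed, and removal by Scrublet score was tried as an alternative. The members, gene lists and alternatives were chosen with earlier results of these data known, and the hyaluronan list was added after its values were seen.

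UMIs were summed over cells and divided by the sum of all UMIs to give CPM, so the counts of 1 library are not replicates and no test was run. Exact 95% intervals are Clopper-Pearson for shares, Poisson for CPM and conditional binomial for ratios. Where a count of cells was 0, the limit is 3 cells. Genes were compared with at least 50 counts and 20 CPM in the higher group. Sizes were 2-fold between kinds of cell, in both libraries, and 1.5-fold between days. The 8 rule genes were left out.

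Genes named by size, from 50 CPM upward, were the 20 highest and 10 lowest in members, ranked by the weaker library, the 15 highest and 15 lowest by day, and the 6 furthest above and below other Pdgfra+ cells by day. For each list, the 2 genes furthest toward its median's side and the 1 furthest the opposite way were named, and further list genes are examples chosen after their values were seen. Mitochondrial, ribosomal protein, haemoglobin and predicted genes, Xist, Tsix and listed Y-linked genes were left out. Thinning drew 4000 UMIs per cell. Clustering used 2000 variable genes, 30 components, 15 neighbours and Leiden resolution 1 in each library (Scanpy 1.11.5, leidenalg 0.10.2). Scaling factors came from edgeR 4.0.16 and DESeq2 1.42.0. Other tools were Python 3.11.15, SciPy 1.17.1 and R 4.3.3. The computation was tested on simulated counts. Coordinates follow GENCODE on mm10. The values of 1 gene named by the rule are not reported here.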

Additional observations from a re-analysis of the deposited data

Results flagged for a closer look

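Spp1, which encodes osteopontin, differed in direction between the 2 kinds of cell. It was 12.3-fold higher at day 5 in Pi16+ Dpp4+ cells, from 40.8 to 503 CPM, while in other Pdgfra+ cells it was at 1137 and 594 CPM, a ratio of 0.522. Among the members, 10 cells held 94.9% of its day 5 UMIs. Members with at least 3 UMIs of the osteoblast gene Ibsp numbered 4 at day 0 (0.64%) and 23 at day 5 (2.76%), against 5.56% and 4.65% of other Pdgfra+ cells. The summed osteoblast markers in members were at 112 and 310 CPM. Without members that held such Ibsp counts, as many of Tnmd or any of the cycling genes Mki67 and Top2a, the ratio was 2.18, and with the rule applied to cells thinned to 4000 UMIs it was 0.383.

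Ecscr, a gene described in endothelial cells, differed the other way. It went from 41.3 to 24.3 CPM in members, a ratio of 0.589, and from 8.61 to 24.6 CPM in other Pdgfra+ cells, a ratio of 2.86. Its level in members was 4.79-fold that of other Pdgfra+ cells at day 0 and 0.990-fold at day 5. The 5 endothelial markers together were at 0.653 and 0.721 CPM in members and at 7.06 and 12.1 CPM in other Pdgfra+ cells. Only members had to lack Pecam1. In other Pdgfra+ cells that met the same exclusions as members, these markers came to 1.23 and 1.03 CPM. Each direction rests on 1 library per day, and neither difference was tested.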

How the results depend on the processing

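No paired analysis was possible because each day had 1 library. None of 1020 named ratios of members to other Pdgfra+ cells changed direction under an alternative, and 312 moved. Of 666 named day ratios, 10 changed direction and 150 moved. With the rule applied to cells thinned to 4000 UMIs, the shares were 3.81% and 2.87%, the genes 2-fold higher and lower in members 96 and 178 (53 and 112 as reported), the genes lower at day 5 501 (270 as reported), and the day ratios of Spp1, Ptx3, Mfap4, Angptl7 and Ccl2 were 0.383, 0.777, 0.941, 0.412 and 0.255. The day 5 share was 8.15% with the stricter cell filter and 7.99% without the third gene. With no count minimum, 957 and 879 genes differed between the kinds of cell, and 3595 were higher and 2308 lower at day 5. With doublets removed, 77 and 156 genes differed, and Bglap2 in members was 0.0128 and 0.0103 of its level in other Pdgfra+ cells (0.114 and 0.189 as reported). Against cells without Pi16 and Dpp4, 134 and 199 genes differed. With only main-cluster members, an alternative chosen after seeing the data, 117 and 239 genes differed, and the day ratios were 0.649 for Spp1, 0.603 for Angptl7, 0.931 for Clu and 0.776 for Ccl2. Without members carrying Ibsp, Tnmd or cycling UMIs, Mmp13 was at 0.336. Apart from the smaller number of cells or the wider set of genes that a setting takes in, the cause was not tested. Under DESeq2 scaling, 219 genes were higher and 299 lower at day 5. A median of 1 Dpp4 UMI per member limits the choice of cells.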
